A study of Arabidopsis thaliana with 9 samples.

Results

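The S phase and DNA replication genes described here are 39 Arabidopsis thaliana genes chosen by function, with earlier results of these data known. They comprise the MCM helicase and its relatives, origin licensing factors, CDC45 and the GINS complex, and priming and fork proteins. Enzymes of deoxynucleotide supply, chromatin assembly and mismatch repair genes, and the E2F and DP transcription factors complete the list. Of the 39 genes, 37 had a row among the 20777 loci measured, and MCM6 (AT5G44635) and ORC1A (AT4G14700) were not analysed here. Names follow RefSeq, which calls the MCM7 gene PRL, and AT5G26680, which it leaves unnamed, is given by its locus code.

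Levels were measured on Affymetrix ATH1 arrays in the vegetative part of Col-0 seedlings at growth stage 1.03, grown on MS medium with 16 h of light and 8 h of dark at 22 °C. There were 3 genotypes with 3 biological replicates each: wild type (WT), 35S::GA20OX and 35S::JAW. In both transgenic lines the 35S promoter, which is active in most tissues, drives the transgene. The first transgene encodes a gibberellin 20-oxidase, which makes precursors of the growth hormone gibberellin. The second carries the JAW gene for miR319a, whose targets are 5 TCP transcription factor mRNAs. Both lines and the controls share the Col-0 background, and how many independent transformants stand behind a line is not given in the sources used here. All values below are log2 expression values, made by the authors with RMA, and a difference of log2 values is a log2 fold change.

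DNA replication starts where the origin recognition complex marks an origin and CDC6 and CDT1 load the ring-shaped MCM helicase. CDC45 and GINS then switch the helicase on, DNA polymerase alpha with its primase lays down primers, PCNA clamps the polymerases to the template, and ribonucleotide reductase supplies the deoxynucleotides. Many of these genes are transcribed as cells enter S phase, under E2F factors bound to DP partners and held in check by the retinoblastoma protein. In a young leaf, S phase serves both cell division and the endocycles that raise ploidy in expanding cells.

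The transgenes followed their labels on every array. GA20OX1 (AT4G25420) had log2 values of 12.94 to 13.01 in 35S::GA20OX and 6.01 to 6.14 in wild type, and the targeted genes TCP2, TCP3, TCP4, TCP10 and TCP24 had log2 differences from -3.43 to -1.83 between 35S::JAW and wild type. GA20OX1 was also lower in 35S::JAW than in wild type, with a difference of -0.85 (limma adjusted p under 0.05 over all loci). The 3 leaf markers in the table (PSBO1, PSAF and RCA) had log2 values between 13.85 and 14.32 in all genotypes. All 5 floral markers lay between 3.25 and 4.88, and the root hair genes RHD6, EXPA7 and SHV2 had mean levels of 4.38, 4.87 and 4.39. The other root markers, SCR and GL2, which shoots also express, had means of 7.76 and 7.59, and GL2 was higher in 35S::JAW without overlap, with a difference of 0.27 ± 0.09 (adjusted p = 0.11). Array medians ran from 6.35 to 6.41, and lower quartiles from 4.28 to 4.42, highest in 35S::JAW replicate 2. The mean levels of the 37 S phase genes lay above the lower quartile of all loci in each case, with a median of 6.55 against 6.39 over all loci. Their pooled standard deviation (SD) within a genotype had a median of 0.111, close to the 0.103 of all loci, and ranged from 0.0462 for TK1a to 0.228 for E2F1.

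In 35S::JAW, the question was whether replication genes differed once the TCP transcripts were reduced. Of the 37 genes, 33 had negative log2 differences, with a median of -0.14, where 46.1% of all loci were negative and the median over all loci was 0.01. The genes MCM3, MCM5, PRL, PCNA1, ETG1 and TSO2 fell and the GINS gene TTN10 rose. A gene is said to fall or rise, or is called, where limma's moderated two-sided test gave an adjusted p under 0.05 over all loci. The 6 that fell are 16.2% of the members, against 3.98% of all loci, and the 1 that rose is 2.7%, against 4.34% of all loci. In 12 members (32.4%) all 3 35S::JAW arrays lay below all 3 wild-type arrays, as in 11.4% of all loci. The strongest decrease, in MCM5, left 74.5% of the wild-type level. Because the tissue was bulk, fewer cells in S phase and less RNA per cell cannot be told apart. The count changed when single arrays were removed: with 35S::JAW replicate 1, 2 or 3 left out, 2, 3 or 2 members were called lower. Removing wild type replicate 1, 2 or 3 left 1, 5 or 0 called lower. Over these removals the loci called lower in all numbered 526 to 865, against 827 with every array. The median member difference stayed between -0.19 and -0.13. TTN10 lost its call when wild type replicate 1 or 3, or 35S::JAW replicate 2 or 3, was removed, and with only the 6 arrays compared (adjusted p up to 0.131).

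**Figure D1:**
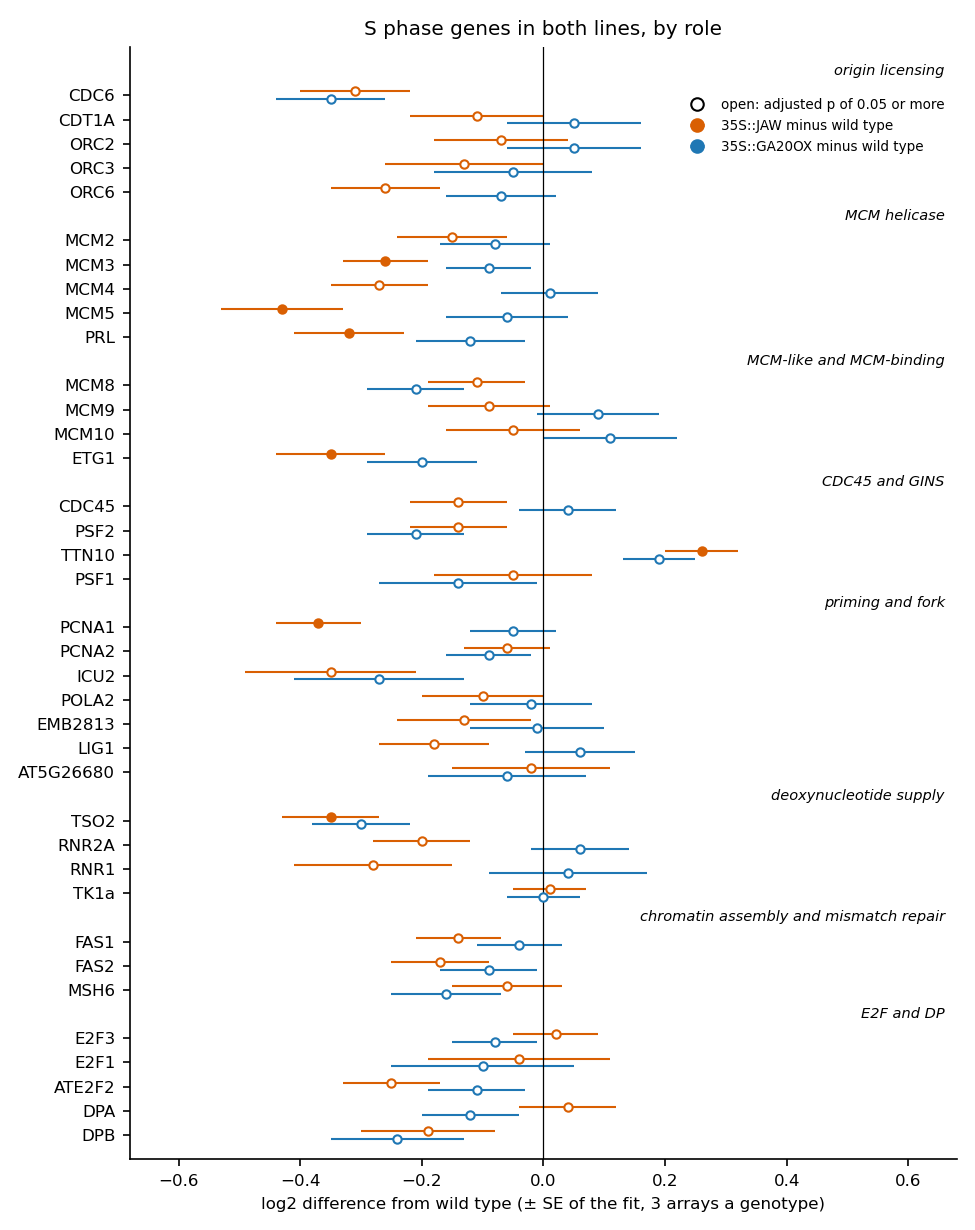
Log2 difference from wild type of each of the 37 measured genes (x axis, points with the standard error of the fit, 3 arrays per genotype), grouped by role, for 35S::JAW in orange and 35S::GA20OX in blue. Filled points had an adjusted p under 0.05: 6 below 0 and TTN10 above it, all in 35S::JAW.

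Of the 6 shoot apex markers, 1 was called higher in 35S::JAW against wild type and 0 lower, where the shares of all loci were 4.34% and 3.98%. The meristem receptor gene CLV1 rose by 0.33 ± 0.07 against wild type (adjusted p = 0.00913), and the homeobox genes STM and KNAT1 were lower than in 35S::GA20OX, with differences of -0.49 ± 0.11 (adjusted p = 0.0162) and -0.82 ± 0.18 (adjusted p = 0.0124). Between the lines, 2 of the 6 markers were called lower (33.3%, against 6.52% of all loci) and 1 higher (16.7%, against 6.71%). In that comparison 3 differences were negative and 3 positive, reaching 0.47. Against wild type STM had -0.40 ± 0.11 (adjusted p = 0.0539) and KNAT1 -0.53 ± 0.18 (adjusted p = 0.109). In 35S::JAW 4 of the 6 markers had negative and 2 positive differences from wild type. Without overlap, 2 lay below wild type and 2 above it (33.3% each, against 11.4% and 14.2% of all loci). The mean log2 value of the 6 markers per array was 5.70 to 5.85 in wild type, 5.72 to 5.92 in 35S::GA20OX and 5.62 to 5.77 in 35S::JAW. WUS and CLV3 were dim in all genotypes, with mean levels of 3.78 and 4.38. The part of the apex tissue in the differences of replication genes was not tested.

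In 35S::GA20OX, 0 of the 37 genes were called against wild type. The background was low, with 0.168% of all loci called lower and 0.164% called higher. Of the members 27 had negative differences, with a median of -0.07, where 48.5% of all loci were negative and the median over all loci was 0.00. At an unadjusted p under 0.05 there were 7 (18.9%, against 10.5% of all loci), of which 6 were lower. With an intensity trend and a robust prior in limma, 1 was called, TSO2 (adjusted p = 0.0439, against 0.0439 to 0.454 over 16 alternatives). All 3 transgenic arrays lay below all wild-type arrays in 5 members (13.5%: CDC6, ETG1, TSO2, PSF2 and DPB), as in 8.3% of all loci. Both lines were compared with the same 3 wild-type arrays, so a wild-type array that was high or low moves both sets of differences.

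In the direct comparison of both lines the wild-type arrays enter only the estimate of spread. MCM4, MCM5, PCNA1 and RNR2A were lower in 35S::JAW, 4 of 37 genes (10.8%) against 6.52% of all loci, and 0 were higher against 6.71%. The median difference was -0.09, with 24 negative and 13 positive, where 47.3% of all loci were negative and the median over all loci was 0.01. In 8 members (21.6%) the arrays of 35S::JAW lay below those of 35S::GA20OX without overlap, as in 14.3% of all loci. The count of 4 was 0 without 35S::GA20OX replicate 3 or without 35S::JAW replicate 1, and 1 without wild type replicate 1. It was 2 without 35S::GA20OX replicate 1, 35S::GA20OX replicate 2 or 35S::JAW replicate 3, and 2 with arrays centred on their medians or with only the 6 arrays compared.

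**Figure D2:**
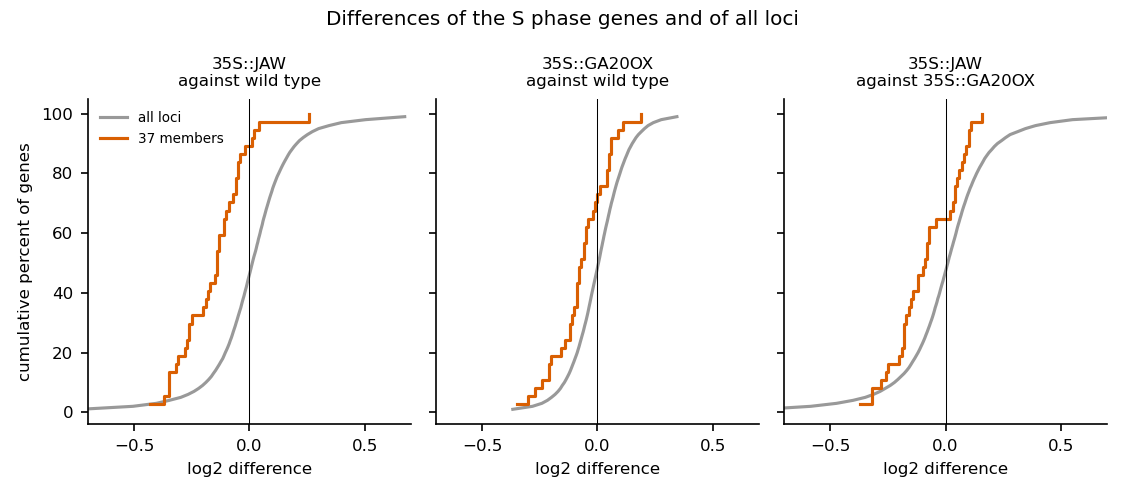
Cumulative percent of genes (y axis) at or below a log2 difference (x axis) for the 37 members in orange and all 20777 loci in grey, in each comparison. The member curve lies to the left of the grey curve around 0: 33 members are negative in 35S::JAW and 27 in 35S::GA20OX.

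Origin licensing genes had log2 differences from -0.31 to -0.07 in 35S::JAW, and none of the 5 measured passed the test, with 2 at an unadjusted p under 0.05 (40%, against 20.7% of all loci). CDC6 (AT2G29680), which loads the helicase onto origins, had values of 6.20, 6.19 and 6.18 in wild type, 5.90, 5.69 and 5.93 in 35S::GA20OX, and 6.0005, 5.72 and 5.92 in 35S::JAW. Both lines lay below wild type without overlap. The differences from wild type were -0.35 ± 0.09 (SE, n = 3) in 35S::GA20OX (adjusted p = 0.168) and -0.31 ± 0.09 in 35S::JAW (adjusted p = 0.0537). For 35S::JAW the adjusted p ranged from 0.0305 to 0.152 over 16 alternatives, under 0.05 in 7 of them. ORC6 (AT1G26840), a subunit of the origin recognition complex, was below wild type without overlap in 35S::JAW, with a difference of -0.26 ± 0.09 (adjusted p = 0.11). The other members, ORC2 (AT2G37560), ORC3 (AT5G16690) and the licensing factor gene CDT1A (AT2G31270), had overlapping arrays in both lines and differences between -0.13 and 0.05.

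The MCM helicase genes held 3 of the 6 decreases called in 35S::JAW, which is 60% of those measured, against 3.98% of all loci. All 5 measured subunits had negative differences, with a median of -0.27, where 46.1% of all loci were negative. MCM5 (AT2G07690) had values of 6.88, 6.71 and 7.03 in wild type, 6.83, 6.65 and 6.96 in 35S::GA20OX, and 6.38, 6.42 and 6.55 in 35S::JAW. Only the 35S::JAW arrays stood apart, below all 6 others. MCM5 fell by 0.43 ± 0.10 against wild type (adjusted p = 0.0239), and its difference from 35S::GA20OX was -0.37 ± 0.10 (adjusted p = 0.035).

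MCM3 (AT5G46280) had 7.27, 7.19 and 7.32 in wild type, 7.20, 7.10 and 7.22 in 35S::GA20OX, and 7.05, 6.92 and 7.02 in 35S::JAW. The 35S::JAW arrays were below all others, and the difference from wild type was -0.26 ± 0.07 (adjusted p = 0.037). PRL (AT4G02060), the MCM7 subunit gene named prolifera, had 8.05, 7.94 and 8.13 in wild type, 7.95, 7.76 and 8.04 in 35S::GA20OX, and 7.74, 7.61 and 7.81 in 35S::JAW. Its 35S::JAW values lay below wild type but overlapped 35S::GA20OX, and the difference from wild type was -0.32 ± 0.09 (adjusted p = 0.0489). The PRL and MCM3 calls were lost on removing any 35S::JAW array, wild type replicate 1 or 3, or 35S::GA20OX replicate 1 (adjusted p up to 0.177 and 0.141), and for MCM3 also with only the 6 arrays compared (adjusted p = 0.0606). For MCM5 the call against wild type was lost on removing 35S::JAW replicate 1 or 2, or wild type replicate 1 or 3 (adjusted p up to 0.103). Its call against 35S::GA20OX was lost on removing wild type replicate 1, 35S::GA20OX replicate 1 or 3, or 35S::JAW replicate 1 or 2 (adjusted p up to 0.131).

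MCM4 (AT2G16440) had 7.40, 7.30 and 7.38 in wild type, 7.34, 7.30 and 7.48 in 35S::GA20OX, and 7.04, 7.22 and 7.02 in 35S::JAW. Wild type and 35S::GA20OX overlapped, and 35S::JAW was below both. The difference was -0.28 ± 0.08 against 35S::GA20OX (adjusted p = 0.0358) and -0.27 ± 0.08 against wild type, where it missed the threshold (adjusted p = 0.0602). Over 16 alternatives the adjusted p ran from 0.0132 to 0.134 against 35S::GA20OX, under 0.05 in 7, and from 0.0167 to 0.191 against wild type, under 0.05 in 4. MCM2 (AT1G44900) overlapped in all genotypes, with -0.15 ± 0.09 in 35S::JAW. In 35S::GA20OX the 5 subunits differed from wild type by -0.12 to 0.01, with 95% confidence intervals that reached from -0.32 for PRL to 0.19 for MCM4.

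**Figure D3:**
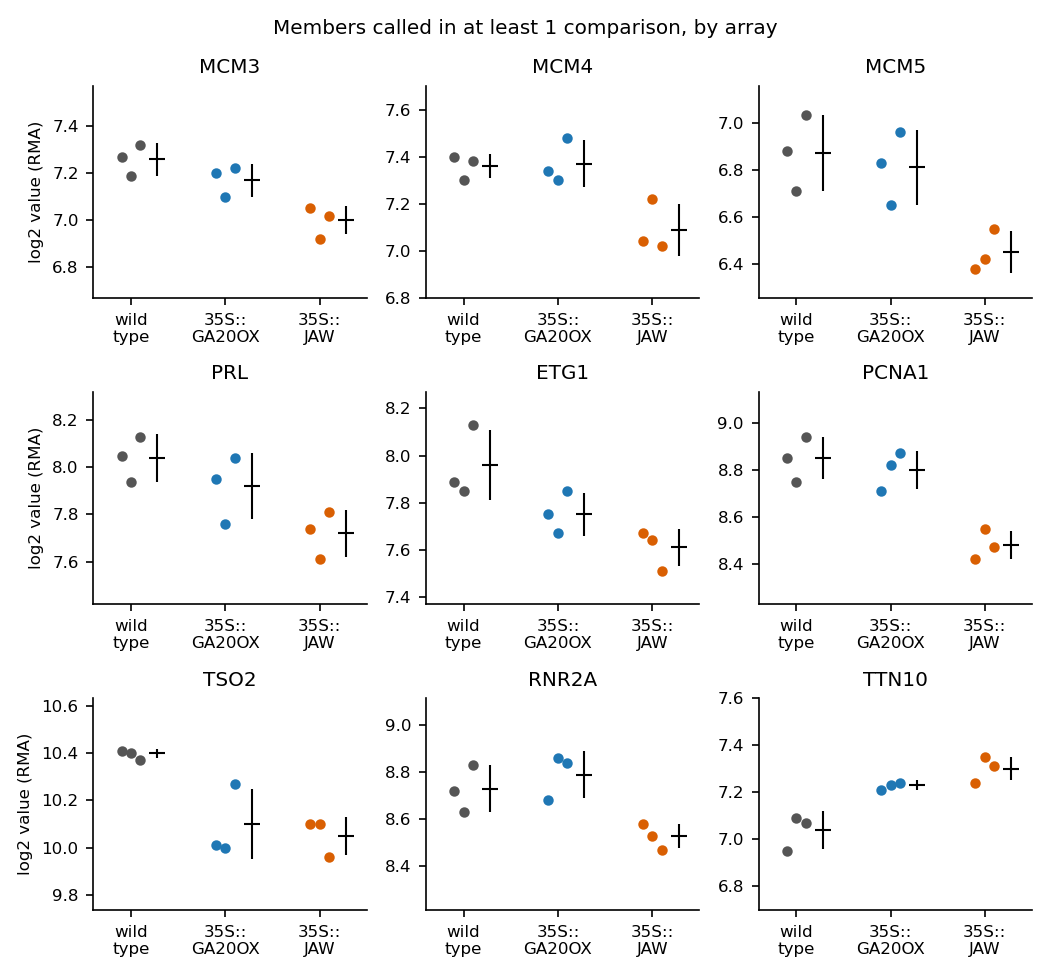
Log2 value on each array (y axis, each panel spanning the same number of log2 units) of the 9 genes called in at least 1 comparison, with the mean and SD of the 3 arrays per genotype as a black cross bar. In MCM3, MCM4, MCM5, ETG1, PCNA1 and RNR2A all 35S::JAW arrays lie below the other 6. ETG1, TSO2 and TTN10 are displaced from wild type in both lines.

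Among the MCM relatives, ETG1 (AT2G40550), an MCM-binding protein gene first found as an E2F target, had values of 7.89, 7.85 and 8.13 in wild type, 7.75, 7.67 and 7.85 in 35S::GA20OX, and 7.67, 7.64 and 7.51 in 35S::JAW. Rounded values of wild type replicate 2 and 35S::GA20OX replicate 3 coincide, and unrounded all wild-type arrays were above both lines. ETG1 fell by 0.35 ± 0.09 in 35S::JAW (adjusted p = 0.0295), and in 35S::GA20OX its difference was -0.20 ± 0.09 (adjusted p = 0.449). That call was lost on removing any 35S::JAW array, wild type replicate 1 or 3, or all 35S::GA20OX arrays (adjusted p up to 0.111). MCM8 (AT3G09660), which acts in the repair of meiotic breaks, had -0.11 in 35S::JAW and -0.21 ± 0.08 in 35S::GA20OX (adjusted p = 0.396). MCM9 (AT2G14050) and MCM10 (AT2G20980), an initiation factor known from yeast, had differences of -0.09 and -0.05 in 35S::JAW and of 0.09 and 0.11 in 35S::GA20OX, with overlapping arrays.

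Of the 4 helicase activator genes, 1 was called in 35S::JAW, TTN10 (25% higher, against 4.34% of all loci). The other 3 had negative differences that did not pass. TTN10 (AT1G19080), the gene of the GINS subunit PSF3, had 6.95, 7.09 and 7.07 in wild type, 7.21, 7.23 and 7.24 in 35S::GA20OX, and 7.24, 7.35 and 7.31 in 35S::JAW. It was the 1 member higher without overlap in each line, where 14.2% of all loci were so in 35S::JAW and 8.53% in 35S::GA20OX. TTN10 rose by 0.26 ± 0.06 in 35S::JAW (adjusted p = 0.0299), to 119.8% of the wild-type level, and in 35S::GA20OX its difference was 0.19 ± 0.06 (adjusted p = 0.316).

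The other GINS genes had negative differences in both lines, none past the threshold. For PSF2 (AT3G12530) they were -0.14 ± 0.08 in 35S::JAW and -0.21 ± 0.08 in 35S::GA20OX, and for PSF1 (AT1G80190) -0.05 ± 0.13 and -0.14 ± 0.13. PSF1 was uneven in 35S::JAW, with 6.18, 5.68 and 6.22. CDC45 (AT3G25100), which joins GINS on the helicase, had -0.14 ± 0.08 in 35S::JAW and 0.04 in 35S::GA20OX. Its values in 35S::JAW were 6.06, 6.36 and 6.06, the middle one above all wild-type arrays. In PSF1 and CDC45 it was 35S::JAW replicate 2 that differed from the other replicates, low in the first and high in the second.

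At the fork, the clearest change was in PCNA1 (AT1G07370), a gene of the sliding clamp. It had 8.85, 8.75 and 8.94 in wild type, 8.71, 8.82 and 8.87 in 35S::GA20OX, and 8.42, 8.55 and 8.47 in 35S::JAW. The 35S::JAW arrays lay below all 6 others, which overlapped each other. PCNA1 fell by 0.37 ± 0.07 against wild type (adjusted p = 0.0101), to 77.6% of its level, and its difference from 35S::GA20OX was -0.32 ± 0.07 (adjusted p = 0.015). Its call against wild type held in 15 of 16 alternatives and was lost without wild type replicate 3 (adjusted p = 0.0501, and 0.00137 to 0.0501 over all 16). Against 35S::GA20OX it held in 13 of 16, the exceptions being the removal of 35S::GA20OX replicate 2 or 3 or of 35S::JAW replicate 1 (adjusted p up to 0.0631).

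PCNA2 (AT2G29570), the second gene of the clamp, had 8.64, 8.53 and 8.62 in wild type, 8.55, 8.39 and 8.58 in 35S::GA20OX, and 8.57, 8.49 and 8.55 in 35S::JAW. All genotypes overlapped, and the 35S::JAW difference of -0.06 had a 95% confidence interval from -0.21 to 0.09. The PCNA1 minus PCNA2 difference on an array averaged 0.25 ± 0.06 (SD, n = 3) in wild type, 0.29 ± 0.13 in 35S::GA20OX and -0.06 ± 0.10 in 35S::JAW. It changed by -0.31 ± 0.07 (SE) between wild type and 35S::JAW, with no overlap of arrays. The exact two-sided permutation test gave p = 0.1, the smallest that 3 arrays against 3 allow, and 0.15 after Benjamini-Hochberg adjustment over 6 such tests of PCNA and ribonucleotide reductase pairs. These pairs were picked after their values had been seen, and probes shared between the similar PCNA sequences were not checked.

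Other fork genes had negative differences in 35S::JAW that did not pass the test. ICU2 (AT5G67100), the catalytic subunit of DNA polymerase alpha, had the largest of these differences, -0.35 ± 0.14 in 35S::JAW and -0.27 ± 0.14 in 35S::GA20OX, with overlapping arrays. Its values in 35S::JAW spread from 5.83 to 6.40. POLA2 (AT1G67630), another subunit of that polymerase, EMB2813 (AT1G67320), the large primase subunit, and LIG1 (AT1G08130), a DNA ligase that joins Okazaki fragments, had differences of -0.10, -0.13 and -0.18 in 35S::JAW. LIG1 lay below 35S::GA20OX without overlap in 35S::JAW, with a difference of -0.25 ± 0.09 (adjusted p = 0.104). AT5G26680 had -0.02 in 35S::JAW and -0.06 in 35S::GA20OX.

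Of the 3 ribonucleotide reductase genes measured, all had negative differences in 35S::JAW and 1, TSO2, was called lower than wild type, as were 3.98% of all loci. TSO2 (AT3G27060), a small subunit gene, had 10.41, 10.40 and 10.37 in wild type, 10.01, 9.9996 and 10.27 in 35S::GA20OX, and 10.10, 10.10 and 9.96 in 35S::JAW. Every array of both lines lay below wild type. TSO2 fell by 0.35 ± 0.08 in 35S::JAW (adjusted p = 0.0243), while in 35S::GA20OX the difference was -0.30 ± 0.08 (adjusted p = 0.212). The 35S::JAW call was lost on removing any wild-type array or 35S::JAW replicate 1 or 3 (adjusted p up to 0.0911).

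RNR2A (AT3G23580), the other small subunit gene measured, had 8.72, 8.63 and 8.83 in wild type, 8.68, 8.86 and 8.84 in 35S::GA20OX, and 8.58, 8.53 and 8.47 in 35S::JAW. Here the 35S::GA20OX arrays overlapped wild type, and 35S::JAW was below both. The difference was -0.26 ± 0.08 against 35S::GA20OX (adjusted p = 0.0408, and 0.0133 to 0.134 over 16 alternatives, under 0.05 in 7) and -0.20 ± 0.08 against wild type (adjusted p = 0.147). The TSO2 minus RNR2A difference was 1.67 ± 0.11 (SD, n = 3) in wild type, 1.30 ± 0.15 in 35S::GA20OX and 1.52 ± 0.05 in 35S::JAW. It changed by -0.36 ± 0.11 (SE) in 35S::GA20OX, with no overlap with wild type (exact two-sided permutation p = 0.1, adjusted 0.15), and by -0.14 ± 0.07 in 35S::JAW (exact p = 0.2, adjusted 0.24).

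RNR1 (AT2G21790), the large subunit gene, varied more between replicates, with 8.97, 8.64 and 8.86 in wild type and 8.57, 8.31 and 8.76 in 35S::JAW. These groups overlapped, and its difference of -0.28 ± 0.13 did not pass (adjusted p = 0.24). TK1a (AT3G07800), a thymidine kinase of the salvage route, lay between 8.47 and 8.58 on all 9 arrays, with a 95% confidence interval of -0.12 to 0.15 for the 35S::JAW difference.

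Chromatin assembly and mismatch repair genes had small negative differences in both lines. FAS2 (AT5G64630), a subunit of the chromatin assembly factor CAF-1, had 6.28, 6.24 and 6.30 in wild type, 6.06, 6.29 and 6.20 in 35S::GA20OX, and 6.15, 6.18 and 5.96 in 35S::JAW. The 35S::JAW arrays lay below wild type, with a difference of -0.17 ± 0.08 (adjusted p = 0.252). FAS1 (AT1G65470), its partner, had -0.14 ± 0.07 in 35S::JAW, and MSH6 (AT4G02070), which recognises mismatches, had -0.06. Their differences in 35S::GA20OX were -0.04 and -0.16.

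None of the 5 E2F and DP genes passed in any comparison. Of all loci, 3.98% were called lower and 4.34% higher in 35S::JAW, and 0.168% and 0.164% in 35S::GA20OX. Between the lines the shares were 6.52% and 6.71%. ATE2F2 (AT1G47870), which encodes the repressor-type E2FC, had 6.73, 6.77 and 6.58 in wild type, 6.49, 6.56 and 6.70 in 35S::GA20OX, and 6.41, 6.43 and 6.48 in 35S::JAW. Its 35S::JAW arrays lay below wild type without overlap, with a difference of -0.25 ± 0.08 (adjusted p = 0.0756). The activator genes E2F3 (E2FA, AT2G36010) and E2F1 (E2FB, AT5G22220) had 0.02 ± 0.07 and -0.04 ± 0.15 in 35S::JAW and overlapped in all genotypes. Of their dimer partners, DPA (AT5G02470) had 0.04 ± 0.08 and DPB (AT5G03415) -0.19 ± 0.11. In 35S::GA20OX all 5 E2F and DP genes were negative, from -0.24 for DPB to -0.08 for E2F3, where 48.5% of all loci were negative. DPB was 6.32, 6.33 and 6.35 in wild type and 6.12, 6.08 and 6.08 in 35S::GA20OX, without overlap (adjusted p = 0.472). In 35S::JAW it was 6.25, 5.85 and 6.33, again with replicate 2 apart from the others.

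Across arrays, the median member lay 0.117 and 0.115 above its own mean over the 9 arrays in wild type replicates 1 and 3, and 0.0036 above it in wild type replicate 2. In 35S::GA20OX it was -0.0005, -0.0479 and 0.0732, and in 35S::JAW -0.0978, -0.125 and -0.0528. The 35S::JAW arrays were thus the lowest 3 of the 9, and 35S::GA20OX overlapped wild type. In wild type replicate 2, 27 of 37 members lay below their wild-type mean, against 12 and 9 in replicates 1 and 3. In 35S::GA20OX replicate 2 the count was 26, against 18 and 12, and in 35S::JAW the counts were 20, 20 and 11. The median member was lowest in replicate 2 of each genotype. Without wild type replicate 2 the median difference was -0.19 in 35S::JAW and -0.11 in 35S::GA20OX, against -0.14 and -0.07 with it. Without wild type replicate 3 it was -0.13 and -0.04, and without 35S::GA20OX replicate 2 the 35S::GA20OX median was -0.05.

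**Figure D4:**
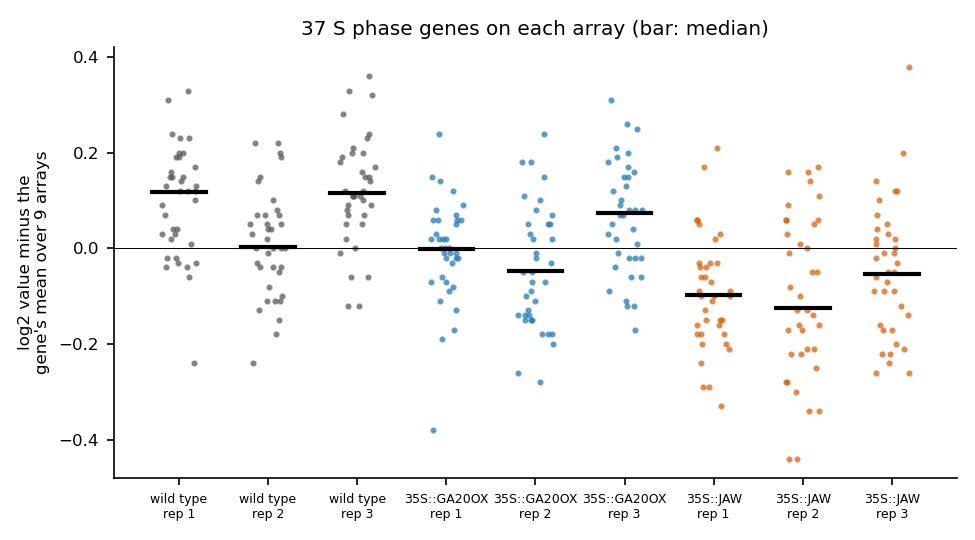
Log2 value of each of the 37 genes minus its mean over the 9 arrays (y axis) on every array, with the median as a black bar. The bars of the 3 35S::JAW arrays lie from -0.125 to -0.0528, below those of all other arrays, and wild type replicate 2 (0.0036) lies below the other wild-type arrays.

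Further genes of the pathway were followed in lists outside the members. Of 26 other replication genes measured out of 31 listed, 21 were negative in 35S::JAW, with a median difference of -0.10. Of all loci 46.1% were negative. Among the 26 genes 0 fell and 1 rose, EMB2775 (AT5G27740), a subunit of the clamp loader replication factor C, with 0.24 ± 0.06 (adjusted p = 0.0431). That is 3.85% called higher, against 4.34% of all loci, and 0 lower, against 3.98%. At an unadjusted p under 0.05 there were 8 (30.8%, against 20.7% of all loci), of which 6 were lower. In 35S::GA20OX the median was -0.03 and none was called, with 2 at an unadjusted p under 0.05 (7.69%, against 10.5% of all loci). EMB2775 had 0.17 ± 0.06 there (adjusted p = 0.396), and the largest difference was -0.29 ± 0.12 in CTF18 (AT1G04730), a gene of an alternative clamp loader. Between the lines, the thymidine kinase gene TK1b (AT5G23070) was lower in 35S::JAW, with a difference of -0.37 ± 0.10 (adjusted p = 0.0315). It was the 1 gene of this list called there, 3.85% lower against 6.52% of all loci, and 0 were higher against 6.71%. At an unadjusted p under 0.05 there were 5 (19.2%, against 25.2% of all loci).

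Genes for histone H3.1, the H3 form deposited during replication, were lower in 35S::JAW than in 35S::GA20OX without overlap in 5 of 5 cases, as were 14.3% of all loci. The median difference was -0.19, and AT5G10400 passed with -0.23 ± 0.06 (adjusted p = 0.0399). Its values were 8.73, 8.72 and 8.77 in wild type, 8.96, 8.79 and 8.89 in 35S::GA20OX, and 8.62, 8.66 and 8.68 in 35S::JAW, so wild type lay between the lines. Against wild type none of the 5 passed in either line, with medians of -0.11 in 35S::JAW and 0.05 in 35S::GA20OX. In 35S::JAW all 5 differences were negative, where 46.1% of all loci were. Of the H3.1 genes 4 lay below wild type without overlap (80%, against 11.4% of all loci). In 35S::GA20OX 4 were positive and 1 negative, and 1 gene lay above wild type without overlap (20%, against 8.53% of all loci). At an unadjusted p under 0.05 there were 2 of 5 in 35S::JAW, against 20.7% of all loci, and 0 in 35S::GA20OX, against 10.5%. The largest of these differences were -0.20 ± 0.07 in AT5G65360 for 35S::JAW and 0.15 ± 0.09 in AT3G27360 for 35S::GA20OX. The H3.1 genes encode the same protein, and probes shared between them were not checked.

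None of the 8 E2F pathway regulators passed in any comparison, with 2, 1 and 0 at an unadjusted p under 0.05 in 35S::JAW, in 35S::GA20OX and between the lines. These are 25%, 12.5% and 0% of the list, against 20.7%, 10.5% and 25.2% of all loci. The D-type cyclin gene CYCD3;3 (AT3G50070) was below wild type in both lines without overlap, with differences of -0.24 ± 0.07 in 35S::JAW (adjusted p = 0.0574) and -0.27 ± 0.07 in 35S::GA20OX (adjusted p = 0.179). DEL2 (AT5G14960), an atypical E2F gene, had -0.24 ± 0.11 and -0.15 ± 0.11 with overlapping arrays. RBR1 (AT3G12280), the retinoblastoma gene, had -0.06 and -0.11. Of 7 markers of G2 and mitosis none passed either. In 35S::JAW 6 of the 7 had negative differences from wild type, with a median of -0.06. In 35S::GA20OX 2 were negative and 5 positive, with a median of 0.04. Between the lines all 7 were negative, with a median of -0.11, against -0.09 for the members. Of all loci 46.1%, 48.5% and 47.3% were negative in 35S::JAW, in 35S::GA20OX and between the lines. The largest difference of the 7 markers was -0.21 ± 0.10, in the aurora kinase gene AUR1 (AT4G32830) in 35S::JAW against wild type. At an unadjusted p under 0.05 there were 0 in 35S::JAW and 0 in 35S::GA20OX, against 20.7% and 10.5% of all loci. Between the lines there was 1 (14.3%, against 25.2% of all loci). Whether the S phase and mitotic lists differed was not tested.

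**Figure D5:**
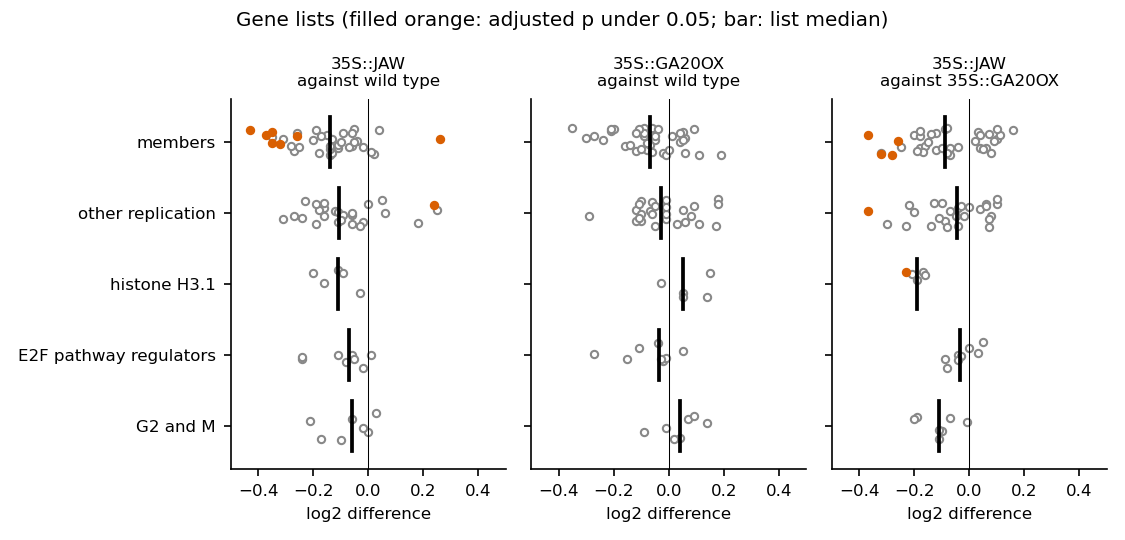
Log2 difference (x axis) of each gene in 5 lists in each comparison, with filled orange points for an adjusted p under 0.05 and a black bar at the list median. In 35S::JAW against wild type the medians run from -0.14 for the members to -0.06 for the G2 and M markers.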

How the data were processed

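Affymetrix ATH1 arrays measured RNA of 9 samples, 3 per genotype. The deposited table holds log2 values; per the submitters' processing notes the authors used RMA, a method of background correction, quantile normalisation between arrays and summary over probes. Quantile normalisation removes any shift common to all genes, and RMA understates differences of dim genes. No RMA version, chip definition or build was found in the labels, so no coordinates are given. The table had 1 row per locus and no detection calls or scan dates, so no batch could be tested.

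From these values limma 3.58.1 in R 4.3.3 fitted 1 mean per genotype over all 9 arrays (lmFit, then eBayes with a constant prior variance). Tests were two-sided, and p-values were adjusted by Benjamini and Hochberg's method over the 20777 loci. The fit was tested on simulated data. No dim locus was left out. The number of arrays limits the precision, and p-values measure the spread between the biological replicates.

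The members and the gene lists were chosen with earlier results of these data known. Every member is named. Array values are given for members called in a comparison and for the member of each role class with the largest 35S::JAW difference. List genes are named where called or, failing that, for the largest difference. Alternatives comprised cyclic loess, centring on array medians, dropping the 40% of loci that were dimmest, a prior with an intensity trend fitted robustly, weights per array, a block for the replicate number, a fit of only the 6 arrays compared, a stricter threshold of 0.01, and the removal of each array in turn. The 16 alternatives counted for single genes leave out the stricter threshold. RefSeq (TAIR10.1) named 20508 of the loci. Promoter motifs and protein sequences were not analysed here.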

Additional observations from a re-analysis of the deposited data

How the results depend on the processing

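No result changed sign where it was called. In 35S::JAW against wild type, an adjusted p under 0.01 left 0 members lower and 0 higher, with 423 loci lower and 443 higher in all. Members called lower numbered 4 to 9 under the other planned settings that removed no single array, and 0 were called higher with only the 6 arrays compared. Leaving out 1 array at a time gave 0 to 7 members lower, 0 to 1 higher, 526 to 865 loci lower and 548 to 876 higher, and a median member difference of -0.19 to -0.13. In 35S::GA20OX against wild type, the threshold of 0.01 gave 7 loci lower and 8 higher, leaving out the dimmest loci 53 and 55, and the intensity trend 103 and 102 with 1 member lower. Leaving out 1 array gave 11 to 42 loci lower and 11 to 37 higher, with 0 members called and a median member difference of -0.11 to -0.04. In 35S::JAW against 35S::GA20OX, the threshold of 0.01 gave 0 members lower, 687 loci lower and 684 higher. Median centring and the fit of 6 arrays each gave 2 members lower, and leaving out 1 array 0 to 5, with 903 to 1356 loci lower and 882 to 1373 higher. The cause of these changes was not tested, except that leaving out arrays reduces the sample size.

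With the replicate number as a block, 8 members were called lower and 1 higher in 35S::JAW, 0 in 35S::GA20OX and 3 lower between the lines. The added calls in 35S::JAW were CDC6 and ICU2, with adjusted p = 0.0305 and 0.0362. No label says what a number shares. Deviations of same-numbered arrays over all loci correlated at -0.102 to 0.251, with a median of 0.0493, against -0.219 to 0.171 and a median of -0.0527 for different numbers. In 9 of 18 comparisons an array was closest to its own number. Replicate 2 had the lowest array median and the highest lower quartile of each genotype. Since not every same-numbered correlation was clearly positive, the numbers were not taken as pairs.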

Other observations

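Outside the members, the loci whose values over the 9 arrays followed the mean of the 9 called members most closely were UGT80B1 (AT1G43620), GPS1 (AT2G34630), ATAF1 (AT1G01720), CYP72A15 (AT3G14690) and AT3G44330. Pearson's r with that mean was 0.983, 0.978, 0.975, 0.969 and 0.969. They were picked as the highest of all loci, and the 9 arrays share 3 genotype means, so these coefficients only rank the loci and carry no test. The 9 members were themselves called in these comparisons, most of them for lower values in 35S::JAW. Lower values of the picked loci in 35S::JAW therefore follow from the choice, and their adjusted p adds no support. UGT80B1, GPS1, ATAF1 and CYP72A15 fell in 35S::JAW against wild type, by 0.36 ± 0.09, 0.28 ± 0.07, 0.48 ± 0.10 and 0.38 ± 0.07 on the log2 scale (limma adjusted p = 0.023, 0.0249, 0.011 and 0.0041). In 35S::GA20OX their differences from wild type were -0.12, -0.10, -0.08 and -0.13, none past the threshold. AT3G44330 had -0.15 ± 0.06 in 35S::JAW (adjusted p = 0.165). GPS1 and the others belong to none of the replication lists.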
